A study of Homo sapiens with 6 samples.

Results

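The core of the Hippo pathway, the kinases and adaptor proteins that restrain the coactivators YAP and TAZ, was described at the RNA level in AsPC-1, a human pancreatic cancer cell line. The members were 10 genes taken by name: the MST kinases STK3 and STK4, the adaptors SAV1, MOB1A and MOB1B, the kinases LATS1 and LATS2, the upstream scaffold NF2 and the TAO kinases TAOK1 and TAOK2. All 10 were among the 15832 gene symbols of the deposited table. Cells transfected with an siRNA against VCPIP1 (siVCPIP1, 3 libraries) were set against cells transfected with a control siRNA (siControl, 3 libraries), each 48 h after transfection. VCPIP1 is a deubiquitinase that works with the ATPase p97, and the series title ties it to Hippo/YAP signalling. The sources used here give neither the siRNA sequences nor whether 1 siRNA or a pool was used. They also do not say whether replicate libraries were made from separate cultures, so each p-value is set against a between-library spread that may be technical only.

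In the mammalian pathway, TAO kinases activate the MST kinases, which work with SAV1 to phosphorylate LATS and MOB1, and LATS bound to MOB1 phosphorylates YAP and TAZ. Phosphorylated YAP and TAZ are held in the cytoplasm or degraded, so they do not reach the TEAD transcription factors. NF2 (merlin), a membrane-associated tumour suppressor, brings LATS to the plasma membrane. The pathway acts mainly through phosphorylation and protein turnover, which an RNA measurement does not record.

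RNA of 8 of the 10 genes fell, each to between 5.72% and 19.7% of its siControl mean, in an experiment in which most genes had lower values. These were STK3, STK4, SAV1, MOB1A, MOB1B, LATS1, LATS2 and TAOK1. NF2 and TAOK2 kept 74.1% and 90.1% of their siControl means and did not pass the test, and 0 members rose. Values are TPM, a length-scaled share of all transcripts, so levels of different genes can be compared unless a bias by base composition enters. Whether such a bias enters was not tested. Changes were tested with limma on log2(TPM + 1) over 10966 genes whose mean was 1 TPM or more, a filter that all 10 members passed. By this test 66.0% of all genes tested were lower in siVCPIP1 at an adjusted p under 0.05, and 15.0% were higher, so a count of 8 in 10 lies near the general level. With a pseudocount of 0.1 TPM the same count of 8 stood beside 65.5% of all genes lower and 14.9% higher. The TPM of the groups did not overlap for 9 members, all lower, against 67.9% of all genes not overlapping and lower, and for 0 members higher, against 18.2%. The median log2 fold change was -1.95 over the members and -1.12 over all genes tested.

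The libraries differed in their whole distribution. Median TPM over all symbols was 1.24 to 2.26 in siVCPIP1 libraries and 6.18 to 7.44 in siControl libraries, and siVCPIP1 replicate 3 held the value of 2.26, against 1.26 and 1.24 in replicates 1 and 2. That library also gave the highest siVCPIP1 value for 10 of the 10 members. VCPIP1 itself was at 0.12, 0.11 and 0.27 TPM in siVCPIP1 and at 2.93, 3.06 and 2.24 TPM in siControl. It kept 6.08% of its siControl mean, within the 5.72% to 19.7% of the 8 members that fell. Its log2 fold change was -1.68, where genes of like transcript GC content had a median of -2.25, on a scale that understates changes of low genes. At its siControl mean of 2.74 TPM, even a complete loss would not have reached that median. Whether VCPIP1 fell beyond the general fall was not tested. Of 8 epithelial markers fixed for the line, 6 had a mean of at least 1 TPM in siVCPIP1 and 8 in siControl. CDH1 (0.42, 0.28 and 1.33 TPM in siVCPIP1, against 27.5, 31.7 and 27.6 TPM in siControl) and CEACAM6 were the 2 below that level. EPCAM was at 3.19, 2.99 and 11.69 TPM in siVCPIP1, against 162.1, 196.2 and 157.3 TPM in siControl. The keratins went the other way, with KRT19 at 8924, 8723 and 7449 TPM in siVCPIP1, against 4665, 3909 and 4114 TPM in siControl, and KRT7, KRT8 and KRT18 also higher in every siVCPIP1 library than in any siControl library. MUC1 was at 23.55, 23.03 and 14.71 TPM in siVCPIP1, against 61.88, 52.24 and 51.93 TPM in siControl, and CEACAM6 was also lower in every siVCPIP1 library. The 8 markers summed to 20940 to 23740 TPM in siVCPIP1 and 13860 to 15990 TPM in siControl. Nearly all of that sum was KRT8, KRT18 and KRT19, so it does not show the fall of EPCAM, CDH1, MUC1 and CEACAM6. Summed fibroblast markers were 1.5 to 4.51 TPM in siVCPIP1 and 45.3 to 69.0 TPM in siControl, mostly LUM, with COL1A2 and DCN under 0.1 TPM throughout. Summed leukocyte markers, nearly all of them CD68, were 122.0 to 159.2 TPM in siVCPIP1 and 144.5 to 150.1 TPM in siControl. The part of these differences in the results was not tested, and in bulk RNA fewer cells of a type and less RNA per cell cannot be told apart.

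**Figure D1:**
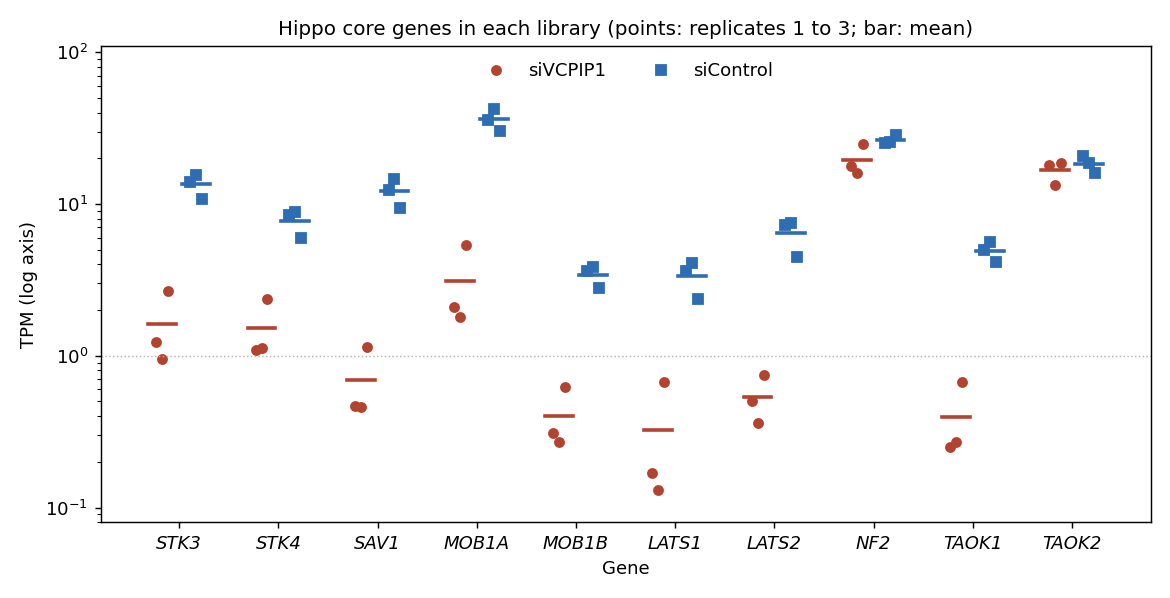
TPM (log axis) of each Hippo core gene in the 3 siVCPIP1 libraries (circles, left) and the 3 siControl libraries (squares, right), with bars at the group means. The groups are apart for 8 genes by a wide margin, nearly meet for NF2 (24.9 TPM as the highest siVCPIP1 value, 25.4 TPM as the lowest siControl value) and overlap for TAOK2.

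Coding sequence of the paralog pairs is shown because it bears on whether their reads can be told apart, and on base composition. Changes of all genes tested were graded along base composition. Each line gives 60 bases of the coding sequence of a GENCODE 29 (GRCh38) transcript, 5′ to 3′, with the longest run that the pair shares in capitals. The windows are bases 157 to 216 of MOB1A and MOB1B, 2080 to 2139 of LATS1 and 1969 to 2028 of LATS2, and 136 to 195 of TAOK1 and TAOK2, counted from the start codon.
MOB1A: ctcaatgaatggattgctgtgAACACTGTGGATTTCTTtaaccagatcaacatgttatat
MOB1B: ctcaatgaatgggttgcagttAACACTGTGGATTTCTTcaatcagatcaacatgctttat
LATS1: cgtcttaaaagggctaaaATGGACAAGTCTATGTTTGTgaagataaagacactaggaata
LATS2: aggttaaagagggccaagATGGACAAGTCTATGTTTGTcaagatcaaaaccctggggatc
TAOK1: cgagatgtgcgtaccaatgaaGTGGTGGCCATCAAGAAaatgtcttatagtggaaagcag
TAOK2: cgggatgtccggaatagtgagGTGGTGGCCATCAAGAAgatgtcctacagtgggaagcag
The LATS windows encode the same 20 residues with 14 differing bases, and their GC content is 35.0% in LATS1 and 45.0% in LATS2. The TAOK windows differ at 11 bases and 2 residues, with a GC content of 45.0% in TAOK1 and 55.0% in TAOK2. The MOB1 windows differ at 7 bases and 1 residue and have similar GC contents, 35.0% in MOB1A and 36.7% in MOB1B. Over whole coding sequences, identity was 79.7% for MOB1A and MOB1B, 73.8% for STK3 and STK4, 64.7% for TAOK1 and TAOK2 and 57.1% for LATS1 and LATS2. The longest shared coding run was 17 bases for the MOB1 pair, 17 for the TAOK pair, 20 for the LATS pair and 23 for the MST pair. The authors' counting of shared reads is not given in the sources used here. The annotation also names 2 pseudogenes of MOB1A, so its value is the less certain for that reason.

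The MST kinases are the upstream kinases of the cascade, and the RNA of both fell. STK3, which encodes MST2, was at 1.24, 0.95 and 2.66 TPM in siVCPIP1, against 13.99, 15.59 and 10.76 TPM in siControl. The groups were far apart, and the mean was 1.62 ± 0.92 TPM in siVCPIP1 and 13.4 ± 2.46 TPM in siControl (SD, n = 3 each), and the log2 fold change was -2.51 (SE 0.27, adjusted p by limma 4.1e-05). STK4, which encodes MST1, was at 1.09, 1.13 and 2.38 TPM in siVCPIP1, against 8.46, 8.91 and 5.97 TPM in siControl. All 3 siVCPIP1 values were again below the siControl values, and the log2 fold change was -1.81 (SE 0.25, limma, adjusted p = 0.00014). STK3 kept 12% of its siControl mean and STK4 19.7%. STK3 made up 53.2%, 45.7% and 52.8% of the summed TPM of both kinases in siVCPIP1, against 62.3%, 63.6% and 64.3% in siControl, so the siControl excess of STK3 was absent or slight in siVCPIP1.

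All 3 adaptors fell, SAV1 and MOB1A by more than MOB1B on the log2 scale. SAV1, the scaffold that joins MST to LATS, was at 0.47, 0.46 and 1.15 TPM in siVCPIP1, against 12.36, 14.54 and 9.45 TPM in siControl. It kept 5.72% of its siControl mean, a smaller share than any other member (log2 fold change -2.96, SE 0.23, limma, adjusted p = 2.0e-05). MOB1A, the LATS coactivator with the highest siControl level of the 10 genes, was at 2.11, 1.81 and 5.35 TPM in siVCPIP1, against 35.76, 42.34 and 30.16 TPM in siControl. On the log2 scale it changed by -3.27 (SE 0.32, adjusted p by limma 2.6e-05), more than the other members at a pseudocount of 1 TPM. At 0.1 TPM SAV1 changed more, by -4.03 against -3.66 for MOB1A. Its paralog MOB1B was at 0.31, 0.27 and 0.62 TPM in siVCPIP1, against 3.6, 3.86 and 2.79 TPM in siControl (log2 fold change -1.66, SE 0.16, limma, adjusted p = 2.5e-05). MOB1A kept 8.56% of its siControl mean and MOB1B 11.7%, so the remaining shares were closer than the log2 changes, which the pseudocount of 1 TPM shortens for a gene as low as MOB1B. MOB1B overlaps the protein-coding gene DCK on the same strand in the annotation, and SAV1 overlaps ATL1 on the opposite strand.

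The LATS kinases, which phosphorylate YAP and TAZ directly, both fell. LATS1 was at 0.17, 0.13 and 0.67 TPM in siVCPIP1, against 3.6, 4.11 and 2.36 TPM in siControl (log2 fold change -1.72, SE 0.21, limma, adjusted p = 7.6e-05). LATS2 was at 0.50, 0.36 and 0.75 TPM in siVCPIP1, against 7.25, 7.5 and 4.49 TPM in siControl (log2 fold change -2.25, SE 0.21, limma, adjusted p = 2.3e-05). Both kept about the same share of their siControl means, 9.63% for LATS1 and 8.37% for LATS2. LATS2 supplied 74.6%, 73.5% and 52.8% of summed LATS TPM in siVCPIP1, against 66.8%, 64.6% and 65.6% in siControl. The siVCPIP1 libraries lay on both sides of the siControl range, replicate 3 below it. LATS2 is also a known transcriptional target of YAP and TEAD, and an antisense gene, LATS2-AS1, overlaps it in the annotation. The strand setting of the counting is not given in the sources used here, so reads of the gene and its antisense partner cannot be told apart.

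The LATS2 promoter is printed because LATS2 alone among the members with a promoter in the RefSeq table held the letters GGAATG, the core of the TEAD binding motif, in that window. It spans chr13:21061537-21061836 on the minus strand (GRCh38.p14, RefSeq), 250 bases before to 50 after the annotated start, 5′ to 3′, with the motif in capitals.
LATS2: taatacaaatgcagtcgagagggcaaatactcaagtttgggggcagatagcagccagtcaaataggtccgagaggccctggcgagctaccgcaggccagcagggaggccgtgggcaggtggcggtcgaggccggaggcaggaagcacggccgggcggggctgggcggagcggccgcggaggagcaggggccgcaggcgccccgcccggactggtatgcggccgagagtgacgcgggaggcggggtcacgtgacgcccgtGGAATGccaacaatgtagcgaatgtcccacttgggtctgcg
The motif starts 9 bases downstream of the annotated start. GGAATG was searched on both strands (as GGAATG and CATTCC) in 13 promoters of 9 members, and 1 held it, as did 14.0% of all 35116 promoters in the table. The match is a description of these letters only.

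NF2 and the TAO kinases act above the MST and LATS kinases, and here the members parted. NF2 was at 17.93, 15.97 and 24.91 TPM in siVCPIP1, against 25.39, 25.45 and 28.52 TPM in siControl. The siVCPIP1 values were all lower but replicate 3 came within 1 TPM of siControl replicate 1, and the log2 fold change of -0.44 (SE 0.195) did not pass (limma, adjusted p = 0.065). Without siVCPIP1 replicate 3 it was -0.61 and passed (limma, adjusted p = 0.00023). TAOK1, a kinase that activates MST, was at 0.25, 0.27 and 0.67 TPM in siVCPIP1, against 4.95, 5.60 and 4.15 TPM in siControl (log2 fold change -2.08, SE 0.17, limma, adjusted p = 2.0e-05). TAOK2, its paralog, was at 18.07, 13.30 and 18.59 TPM in siVCPIP1, against 20.80, 18.57 and 16.07 TPM in siControl. The TAOK2 groups overlapped, and its log2 fold change was -0.15 (SE 0.195, limma, adjusted p = 0.49). TAOK2 thus made up 89.9%, 88.0% and 83.5% of the summed TPM of TAOK1, TAOK2 and TAOK3 in siVCPIP1, against 56.3%, 49.6% and 53.9% in siControl. TAOK3, the third TAO kinase, fell to 2.11 ± 0.78 TPM in siVCPIP1, against 11.35 ± 1.82 TPM in siControl (SD, n = 3 each, limma, adjusted p = 5.7e-05).

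The order of the levels differed between the groups. In siVCPIP1 it ran NF2, TAOK2, MOB1A, STK3, STK4, SAV1, LATS2, MOB1B, TAOK1, LATS1, from 19.6 TPM to 0.323 TPM, and all neighbours overlapped in range except TAOK2 and MOB1A. In siControl it ran MOB1A, NF2, TAOK2, STK3, SAV1, STK4, LATS2, TAOK1, MOB1B, LATS1, from 36.1 TPM to 3.36 TPM, and the overlapping neighbours were STK3 and SAV1, STK4 and LATS2, LATS2 and TAOK1, and MOB1B and LATS1. The 10 genes summed to 42.1, 34.6 and 57.8 TPM in siVCPIP1, against 136.2, 146.5 and 114.7 TPM in siControl. NF2 and TAOK2 together held 85.4%, 84.5% and 75.3% of that sum in siVCPIP1, against 33.9%, 30.1% and 38.9% in siControl. By TPM, the remaining RNA of the set was therefore mostly NF2 and TAOK2.

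Ranks within a library do not depend on its scaling. Among the genes tested, 7 members ranked lower in every siVCPIP1 library than in any siControl library, NF2 and TAOK2 ranked higher, and STK4 overlapped. Over all genes tested, 40.3% ranked lower and 43.8% higher in this way. SAV1 stood at percentiles 12.4, 12.1 and 14.8 in siVCPIP1, against 43.4, 45.2 and 37.9 in siControl. MOB1A stood at 37.5, 35.0 and 44.6 in siVCPIP1, against 69.5, 71.7 and 66.0 in siControl. The STK4 percentiles were 25.6, 26.6 and 28.9 in siVCPIP1, against 33.5, 32.3 and 27.1 in siControl. TAOK2 stood at 70.5, 66.9 and 66.1 in siVCPIP1, against 56.5, 51.2 and 50.9 in siControl, and NF2 at 70.4, 69.3 and 70.6 in siVCPIP1, against 61.3, 59.6 and 64.7 in siControl.

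Within the 4 paralog pairs, the difference between the 2 genes was taken in each library on the log2(TPM + 1) scale. It shows unequal change on that scale only. Because of the pseudocount of 1 TPM, genes at different levels that keep equal shares also change unequally on it. TAOK1 minus TAOK2 was -3.93, -3.49 and -3.55 in siVCPIP1, against -1.87, -1.57 and -1.73 in siControl, a difference of -1.94 with no overlap. MOB1A minus MOB1B was 1.25, 1.15 and 1.97 in siVCPIP1, against 3.0, 3.16 and 3.04 in siControl, a difference of -1.61. For STK3 minus STK4 the difference was -0.69 and for LATS1 minus LATS2 0.53, again without overlap. How often other gene pairs are apart in this way was not tested. Of single genes tested, 67.9% were lower and 18.2% higher by TPM without overlap. The two-sided exact permutation p was 0.1 for each of the 4 pairs and 0.1 after Benjamini-Hochberg adjustment over them, and 0.1 is the smallest that 3 libraries against 3 allow. With a pseudocount of 0.1 TPM the TAOK difference was -3.26, while the LATS difference was 0.15 (exact permutation p = 1.0) and the MOB1 difference was -0.79. After correction for transcript GC content and length the TAOK difference was -0.295, the STK difference -0.18 (exact permutation p = 0.2), the LATS difference 1.32 and the MOB1 difference -1.49. With 3′ UTR GC content in the correction they were -0.20, 0.19, 0.49 and -1.57 in that order. The corrected differences also carry the pseudocount of 1 TPM.

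**Figure D2:**
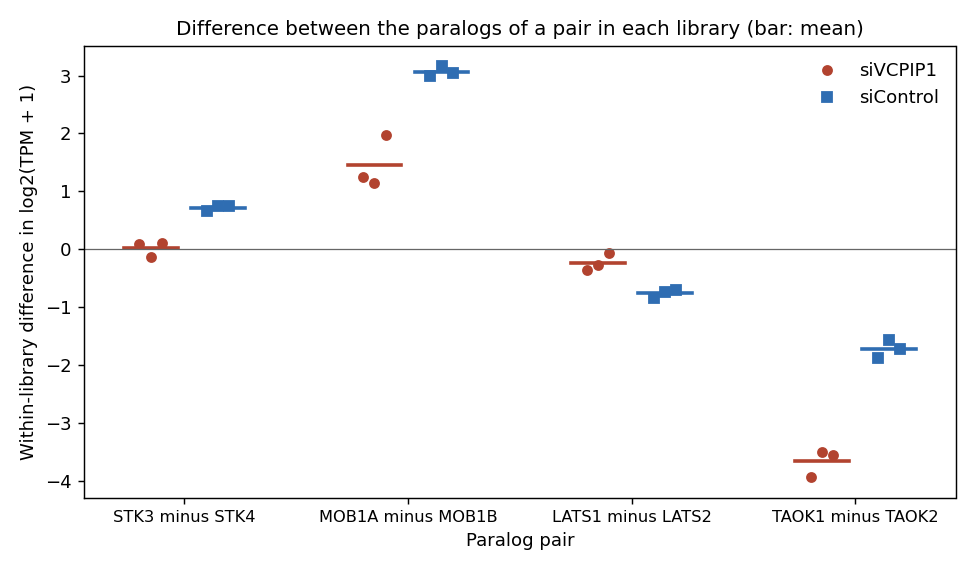
Within-library difference in log2(TPM + 1) between the paralogs of each pair, for the siVCPIP1 libraries (circles, left) and the siControl libraries (squares, right), with bars at the means. The groups are apart in all 4 pairs, by 1.94 for TAOK1 and TAOK2 and by 0.53 for LATS1 and LATS2. With a pseudocount of 0.1 TPM the LATS difference was 0.15. How often other gene pairs are apart in this way was not tested.

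Changes of all genes tested followed base composition, and the members split along it, NF2 and TAOK2 apart from the other 8. The 8 members that fell had a 3′ UTR GC content of 32.3% (STK3) to 42.4% (STK4), while NF2 and TAOK2 had 56.0% and 59.3%. Within the 8 the log2 fold changes did not run in order of it. MOB1B was at -1.66 with 32.5%, MOB1A at -3.27 with 35.1% and STK4 at -1.81 with 42.4%. The scale shortens the change of a gene as low as MOB1B. MOB1B kept 11.7% of its siControl mean, MOB1A 8.56% and STK4 19.7%. By share kept the 8 did not run in order either, with STK3 at 12% and SAV1 (3′ UTR GC content 34.2%) at 5.72%. LATS2 has a coding GC content of 61.0%, close to the 61.9% of TAOK2, and a 3′ UTR GC content of 35.4%. Across the 10 members, log2 fold change correlated with 3′ UTR GC content at r = 0.84 (Spearman's rho 0.47), with transcript GC content at r = 0.71 (rho 0.47) and with coding GC content at r = 0.57 (rho 0.56). These are descriptions over genes that share all 6 libraries. Over all genes tested r was 0.75 for 3′ UTR GC content (10116 genes), 0.72 for transcript GC content and 0.64 for coding GC content (10708 genes each).

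Against genes of like composition the members did not all lie on 1 side. With the genes tested split by transcript GC content into 10 bins of like size, 6 members had a log2 fold change below the median of their bin. LATS2 was at -2.25 where the median of its bin was -0.94, MOB1A at -3.27 against a bin median of -2.25, and SAV1 at -2.96 against a bin median of -2.05. MOB1B (-1.66, bin median -2.25), LATS1 (-1.72, bin median -2.17), TAOK1 (-2.08, bin median -2.17) and STK4 (-1.81, bin median -2.05) were above theirs. For MOB1B and LATS1 this place was fixed by the log2(TPM + 1) scale. At siControl means of 3.42 and 3.36 TPM, even their complete loss would not have reached the bin medians, by transcript or by 3′ UTR GC content. NF2 was at -0.44 in a bin with a median of -0.42. By 3′ UTR GC content, 8 members were below the median of their bin, and LATS2 was close to its own, at -2.25 with a bin median of -2.07. What part GC content plays in the members' changes was not tested.

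**Figure D3:**
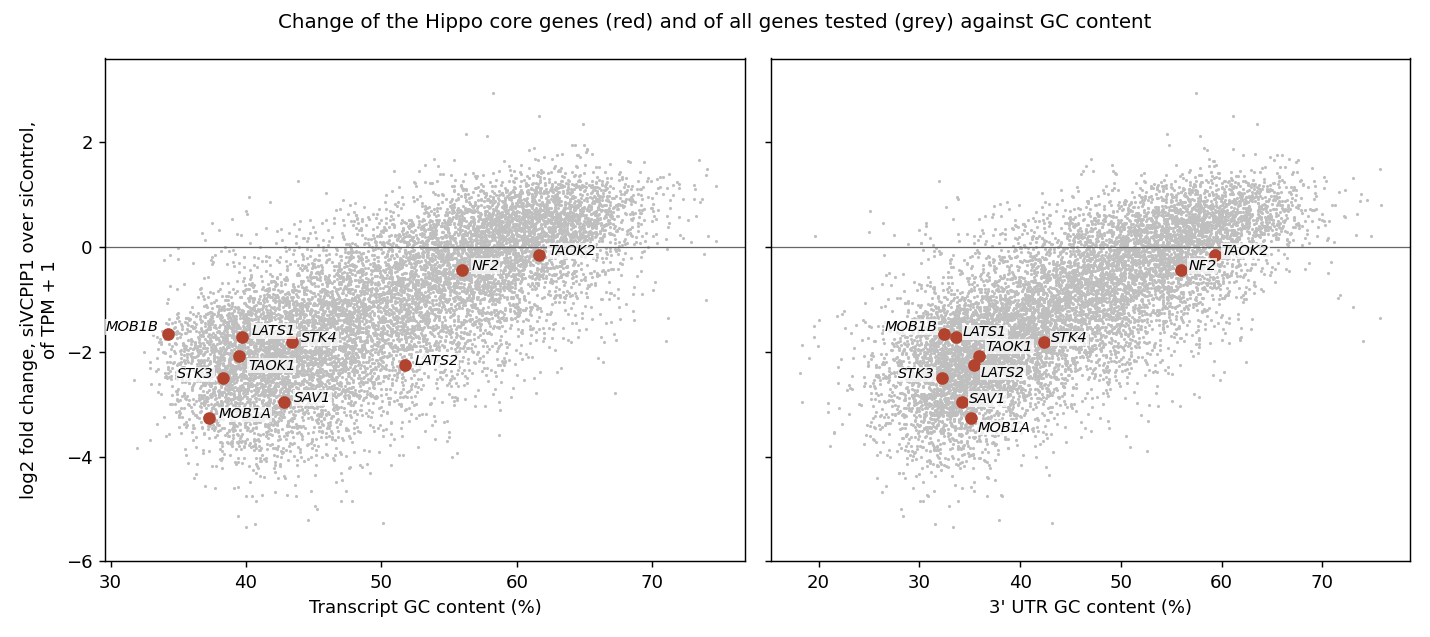
Log2 fold change of TPM + 1, siVCPIP1 over siControl, against transcript GC content (left) and 3′ UTR GC content (right) for all genes tested with a value (grey) and for the 10 Hippo core genes (red). LATS2 (-2.25) lies below the median of -0.94 for its bin of transcript GC content and near the median of -2.07 for its bin of 3′ UTR GC content.

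The direction of some members depended on the scaling of the values. Scaling by the median of ratios moved the median of all genes from -1.12 to -0.14, and quantile normalization moved it to 0.04. The 8 members remained lower by value under both, but STK4 was no longer called after quantile normalization (-0.20, limma, adjusted p = 0.18). Under median-of-ratios scaling 8 members were called lower, against 45.1% of all genes, and 2 higher, against 40.3%. Under quantile normalization 7 were called lower, against 38.8%, and 2 higher, against 42.2%. NF2 and TAOK2 turned to higher under both, TAOK2 by 1.01 and 1.06 (limma, adjusted p = 0.00060 and 0.00019) and NF2 by 0.74 and 0.62 (adjusted p = 0.00080 and 0.0022).

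After correction for transcript GC content and length, SAV1 (-0.74), MOB1A (-1.04) and LATS2 (-1.02) were called lower, against 31.8% of genes lower in general (limma, adjusted p = 0.00095, 0.00078 and 0.0011). MOB1B (0.45), LATS1 (0.30) and NF2 (0.43) were called higher, against 37.2% in general (limma, adjusted p = 0.0036, 0.042 and 0.0061). STK3, STK4, TAOK1 and TAOK2 were not called. With 3′ UTR GC content in place of transcript GC content, SAV1 (-0.59), MOB1A (-1.03) and TAOK1 (-0.24) were called lower, against 31.2% of genes, MOB1B (0.53) and LATS1 (0.42) were called higher, against 35.4%, and LATS2 was at -0.07 (limma, adjusted p = 0.70). SAV1 and MOB1A were thus called lower under all 15 alternatives run. The corrections have no term for level, and LATS1 was at -0.31 when the correction was combined with a pseudocount of 0.1 TPM (limma, adjusted p = 0.28). In that combination SAV1, MOB1A, LATS2 and TAOK1 were called lower, against 31.0% of genes, and MOB1B and NF2 higher, against 36.0%.

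**Figure D4:**
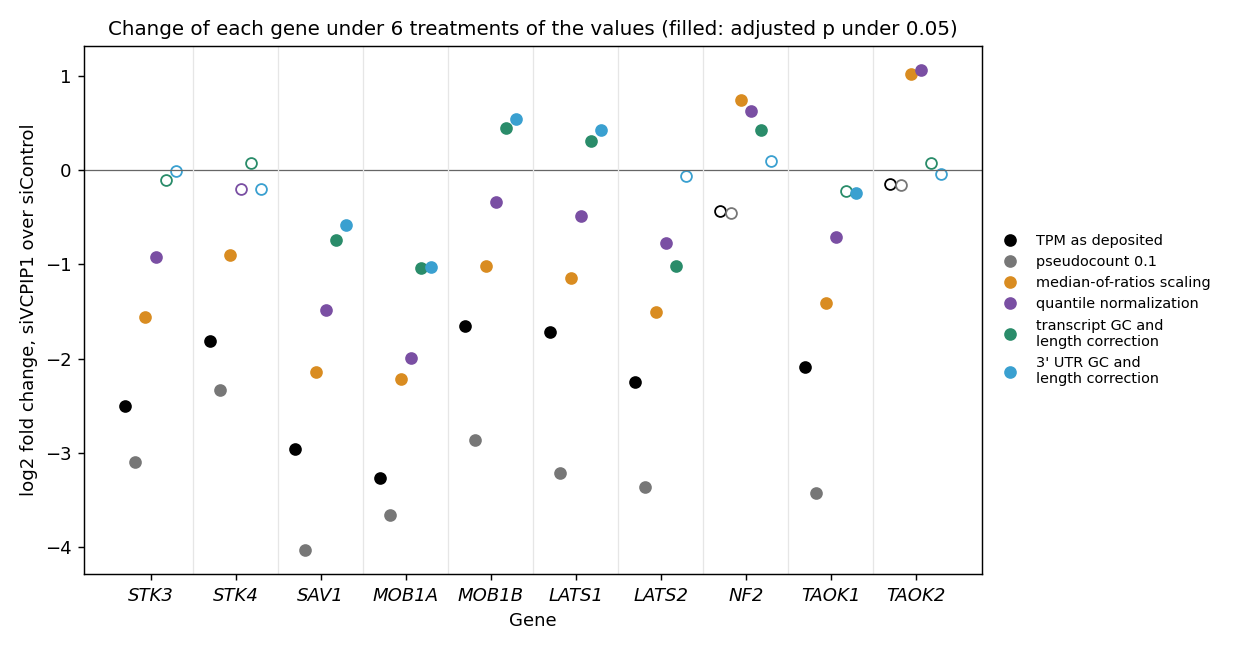
Log2 fold change, siVCPIP1 over siControl, of each Hippo core gene under 6 treatments of the values, with filled circles where the limma adjusted p was under 0.05. SAV1 and MOB1A are filled and below 0 in all 6, NF2 and TAOK2 pass to the upper side after either scaling, and MOB1B and LATS1 after either correction.

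Other genes of the pathway were grouped by role, with TPM as deposited. The background was 66.0% of all genes lower and 15.0% higher, also for the counts of higher genes. The MAP4K family, whose kinases act beside MST, was listed with the TAO kinase TAOK3. Of the 7 tested kinases of that list 6 fell, and MAP4K3 was at 0.390 ± 0.27 TPM in siVCPIP1 and 8.24 ± 1.43 TPM in siControl (SD, n = 3 each). MINK1, the kinase of the 7 that was not called, was at 63.3 ± 9.47 TPM in siVCPIP1 and 57.1 ± 3.01 TPM in siControl. Of 15 tested scaffold and polarity genes 14 fell, among them FAT1, an atypical cadherin, at 0.577 ± 0.39 TPM in siVCPIP1 and 16.6 ± 1.49 TPM in siControl. Of 5 tested RASSF genes, which encode MST-binding or related scaffold proteins, 4 fell, with RASSF3 at -3.40 on the log2 scale.

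STRIPAK, the phosphatase complex that removes activating phosphates from MST, had 13 lower and 2 higher of 15 tested genes, with a median of -2.10. PDCD10, a subunit of the complex, was at 1.89 ± 1.62 TPM in siVCPIP1 and 54.5 ± 5.51 TPM in siControl (log2 fold change -4.40, SE 0.345, limma, adjusted p = 2.0e-05). The striatin STRN4 rose to 100.9 ± 7.97 TPM in siVCPIP1, against 65.0 ± 7.80 TPM in siControl (limma, adjusted p = 0.0031), and the phosphatase scaffold subunit PPP2R1A to 135.4 ± 15 TPM in siVCPIP1, against 105.2 ± 4.25 TPM in siControl (limma, adjusted p = 0.033). The PPP2R1A call was lost without siVCPIP1 replicate 1 or without any 1 of the 3 siControl libraries, with an adjusted p by limma of 0.05 to 0.14, and the STRIPAK count of higher genes was then 1.

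Genes for LATS inhibition and turnover had 10 lower and 0 higher of 13 tested, with the ubiquitin ligase ITCH at -2.59 on the log2 scale. Among relatives of the core kinases and MOB adaptors, 4 of 7 fell and MOB2 rose, with STK24 at 24.8 ± 11.3 TPM in siVCPIP1 and 146.9 ± 20.5 TPM in siControl, and MOB2, which binds NDR kinases, at 55.4 ± 3.32 TPM in siVCPIP1 and 37.2 ± 1.27 TPM in siControl (SD, n = 3 each, limma, adjusted p = 0.0041 for MOB2, which turned to -0.017 after GC and length correction). The ERM proteins related to NF2 all fell, radixin (RDX) to 5.22%, moesin (MSN) to 18.7% and ezrin (EZR) to 37.0% of the siControl mean, where NF2 kept 74.1%. The EZR call was lost under median-of-ratios scaling (-0.21, limma, adjusted p = 0.24), GC and length correction (-0.185, adjusted p = 0.12) and correction on 3′ UTR GC content (-0.15, adjusted p = 0.18). Of 4 genes for YAP degradation, which encode F-box proteins and casein kinases, 3 fell. The F-box genes FBXW11 and BTRC were at -2.69 and -1.0 on the log2 scale. BTRC turned to 0.60 after quantile normalization and to 0.74 after GC and length correction. Of the 7 downstream effectors tested 5 fell and 1 rose, with YAP1 at 7.43% of its siControl mean and TEAD4 at 127.0%, a change that turned to -0.079 on the log2 scale after correction on 3′ UTR GC content. The TEAD4 call (0.35 on the log2 scale, limma, adjusted p = 0.02) was also lost without siVCPIP1 replicate 1, siVCPIP1 replicate 2 or siControl replicate 2 (adjusted p = 0.11, 0.059 and 0.091), and after GC and length correction (0.064, adjusted p = 0.56).

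The counts of these lists moved with the treatment of the values. Under median-of-ratios scaling, with a background of 45.1% lower and 40.3% higher, the MAP4K group had 4 lower and 3 higher, scaffolds and polarity 12 and 2, RASSF 3 and 2, and STRIPAK 12 and 2. LATS inhibition and turnover then had 8 lower and 4 higher, the related kinases and MOB genes 3 and 4, ERM 2 and 0, the effectors 4 and 2, and YAP degradation 1 and 1. After GC and length correction, with a background of 31.8% lower and 37.2% higher, the MAP4K group had 1 lower and 3 higher, scaffolds and polarity 11 and 1 of 14, RASSF 3 and 1, and STRIPAK 5 and 3. LATS inhibition and turnover then had 4 lower and 1 higher, the related kinases and MOB genes 1 and 3, ERM 2 and 0, the effectors 3 and 1, and YAP degradation 2 and 1.

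**Figure D5:**
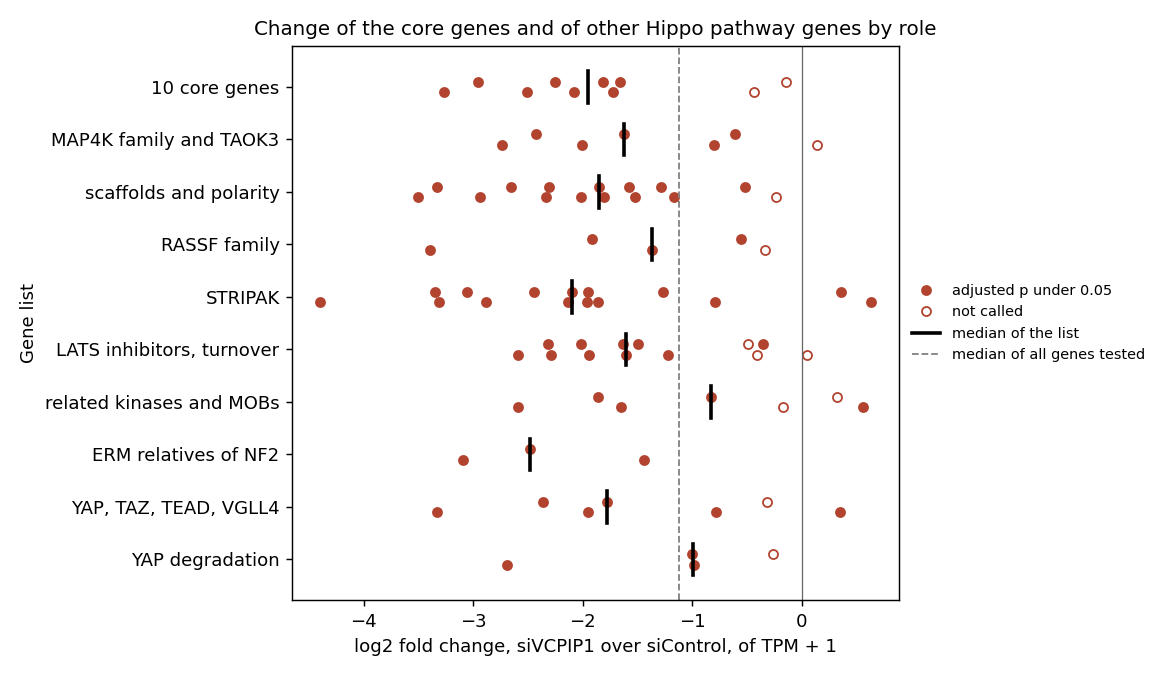
Log2 fold change of TPM + 1, siVCPIP1 over siControl, of each tested Hippo pathway gene by role, filled where the limma adjusted p was under 0.05, with the median of each list (black bar) and of all genes tested (dashed line, -1.12). Medians run from -2.48 for the ERM relatives of NF2 to -0.83 for the related kinases and MOB proteins.

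Genes with the pattern most like each member were found over the 6 libraries by the largest absolute difference in log2(TPM + 1) in any library. For SAV1 these were ITGAV (largest difference 0.06) and NSRP1 (0.10), and for MOB1A NCKAP1 (0.10) was among the 2 most alike. For LATS1 they were ZBTB33 and GPR180 (0.12 and 0.13), and for LATS2 PARD6B and KRIT1 (0.13 and 0.16). For STK3 they were SCLT1 and MEAF6 (0.13 each), for STK4 LMO4 and NCOA3 (0.10 and 0.16), and for MOB1B CHD7 and NAPEPLD (0.07 and 0.10). For TAOK1 they were CSTF2T and SCRN3 (0.105 and 0.11), for TAOK2 PSKH1 and SLC12A4 (0.15 and 0.16), and for NF2 PIK3R2 and UPF1 (0.155 and 0.16).

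By GENCODE 29 (GRCh38), the genes lie on different chromosomes and are annotated on either strand. SAV1 lies at chr14:50632058-50668331 (minus strand, 5 exons), MOB1A at chr2:74152528-74178898 (minus, 6 exons) and LATS2 at chr13:20973032-21061547 (minus, 8 exons). NF2 lies at chr22:29603556-29698598 (plus, 16 exons) and TAOK2 at chr16:29973641-29992261 (plus, 19 exons). The 3′ UTR of TAOK2 takes up 693 bases of a 4246-base transcript, while that of TAOK1 takes up 8882 of 12407 bases and that of MOB1B 6111 of 6963 bases. The 3′ UTR of NF2 has 3796 bases and that of SAV1 1547. Across the members log2 transcript length correlated with log2 fold change at r = 0.22 (rho 0.38), and over all genes tested at r = -0.30 (rho -0.31).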

How the data were processed

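AsPC-1 cells were lysed in Trizol for total RNA, and libraries followed MGISEQ-2000RS protocols, per the labels. The authors deposited TPM per gene symbol, to 2 decimals, per the file headers. The build was GRCh38.p13, per the submitters' processing notes; of aligner, counting, annotation, strand and filters, each is not given in the sources used here. Since TPM keeps no read number, depth is unknown and no counting interval is given.

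Column names gave the samples. Genes averaging 1 TPM or more were tested on log2(TPM + 1), which understates changes of low genes, with limma 3.58.1 in R 4.3.3 (two-sided, mean-variance trend, no covariate) and Benjamini-Hochberg adjustment over all 10966 genes at 0.05. Paralog pairs were compared by exact permutation. Transcript features were read from GENCODE 29, with 1 coding transcript for each gene (10708 genes tested, 97.6%). In the corrections, the dependence of each library on composition and length was subtracted (spline terms with 5 degrees of freedom for GC content and 3 for log2 length, with interaction). Transcript GC content stood in where a gene had no usable 3′ UTR. The fits were tested on simulated data with equal noise at all levels, a linear GC trend and changes in higher genes only. That simulation does not cover changes of low genes. Alternatives were a pseudocount of 0.1, no filter, 2 scalings, the corrections, a replicate block and leaving out each library. The correction on 3′ UTR GC content, and the one with a pseudocount of 0.1, were added after the data were seen.

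The members and gene lists were chosen with earlier results of these data known. Outside the members, the genes named were those with the lowest and highest change in a list, those called higher, and lists of 5 or fewer tested genes. Of these, 8 are given only within counts. TAOK3 was added after its values were seen. For MOB1A, 1 of the 2 most alike genes is not reported here.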

Additional observations from a re-analysis of the deposited data

How the results depend on the processing

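Leaving out each library in turn gave 6742 to 7772 genes lower, 1245 to 1851 higher, 8 to 9 members lower and 0 higher. The pair differences then ranged from -0.73 to -0.61 (STK3 minus STK4), -1.87 to -1.46 (MOB1A minus MOB1B), 0.45 to 0.59 (LATS1 minus LATS2) and -2.02 to -1.80 (TAOK1 minus TAOK2). NF2 was called lower without siVCPIP1 replicate 3 and in no other such fit.

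With TPM as deposited 7241 genes were lower and 1646 higher. Under median-of-ratios scaling 4416 genes and 2 members were higher. Quantile normalization gave 4258 genes lower and 4625 higher, with 2 members higher. After GC and length correction 3402 genes were lower and 3985 higher, with 3 members lower and 3 higher. With the replicate block added, it gave 3408 lower and 3956 higher, again with 3 members lower and 3 higher. With a pseudocount of 0.1 it gave 3322 lower and 3858 higher, with 4 members lower and 2 higher. Correction on 3′ UTR GC content gave 3344 lower and 3793 higher, with 3 members lower and 2 higher. The corrections and scalings centre the libraries by construction.

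Changes that turned direction were as follows. Under median-of-ratios scaling NF2 was at 0.74 and TAOK2 at 1.01. Under quantile normalization NF2 was at 0.62, TAOK2 at 1.06 and BTRC at 0.60. Under GC and length correction, with or without the block, STK4 was at 0.069, MOB1B at 0.45, LATS1 at 0.30, NF2 at 0.43, TAOK2 at 0.068, VCPIP1 at 0.27, MOB2 at -0.017 and BTRC at 0.74. With that correction and a pseudocount of 0.1, STK3 was at 0.07, STK4 at 0.22, MOB1B at 0.45, NF2 at 0.60, TAOK2 at 0.12, TAOK3 at 0.07, MOB2 at -0.048, EZR at 0.045 and BTRC at 1.02. VCPIP1 did not turn in that combination and was at -0.55 (limma, adjusted p = 0.016). Under correction on 3′ UTR GC content, MOB1B was at 0.53, LATS1 at 0.42, NF2 at 0.10, VCPIP1 at 0.35, TAOK3 at 0.26, MOB2 at -0.19, TEAD4 at -0.079, BTRC at 0.45, and STK3 minus STK4 at 0.19. The cause was not tested.

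Whether the replicate numbers pair the libraries could not be settled. Deviations from the group means correlated at 0.53, -0.27 and 0.16 for numbers 1, 2 and 3, and siControl replicate 2 correlated best with siVCPIP1 replicate 3 (0.36). With 3 libraries in each group these correlations depend on each other, so they cannot show that pairing is absent. A replicate block gave 7085 genes and 8 members lower, and the exact p of each pair difference was then 0.25, the smallest 3 pairs allow. The 6 libraries, an unknown read depth and values under 1 TPM for 5 of the 10 members in all or most siVCPIP1 libraries limit the precision of the lowest levels.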
